A study of Homo sapiens with 6 samples.

Results

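The genes described here are 35 of the 59609 gene names measured in 95D cells, a human lung cancer line of genotype WT. They encode the transporters and enzymes that take up glucose, break it down to lactate and pass part of it through the pentose phosphate pathway. The rule that chose them lists symbols and names no measured value, but earlier results of these data were known when the genes were chosen. Glucose-deprived cells (2 libraries) were kept for 48 h in DMEM lacking glucose, glutamine-deprived cells (1 library) for 48 h in DMEM lacking glutamine, and control cells (2 libraries) for 48 h in control DMEM. All cells first had 24 h in complete medium. Both deprivation media held 10% dialyzed serum, whereas the labels name plain fetal bovine serum, also at 10%, for the growth medium, so a change of serum and the loss of a nutrient cannot be told apart in comparisons with control. The labels do not say whether libraries of a group were grown separately, so every p-value here is set against a spread that may be technical. Each library is RNA of a whole culture, in which a change in every cell and a change in some of the cells cannot be told apart.

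Glycolysis turns glucose into pyruvate in the cytosol and yields ATP without oxygen, and cancer cells commonly run it fast and export its end product as lactate. Its entry is set by glucose transporters and hexokinases, its pace mainly by phosphofructokinase, and its later steps are carried by enzymes that are among the most abundant proteins of a cell. The pentose phosphate pathway branches off at glucose 6-phosphate, makes NADPH for biosynthesis and antioxidant defence, and makes ribose for nucleotides. Cells can also run the lower steps backwards to make sugar phosphates from smaller molecules, and glutamine is a common source of that carbon.

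Levels are FPKM, fragments divided by transcript length and by the size of the library, after a scaling between libraries. Being per length, they can be compared between genes only as far as the lengths used match the transcripts present. Those lengths are not given in the sources used here. Each comparison of level between genes below, shares of paralogs included, carries this limit. Fold changes, each with its SE, are differences of log2(FPKM + 1), which understate the change of genes of low level. Inferred depth lay between 34530000 and 48930000 reads a library. The glucose-deprived pair correlated at r = 0.986 and the control pair at r = 0.991 over log2 levels of all genes tested, and libraries of different groups at 0.954 to 0.962. Of 6 epithelial markers, KRT18 stood at 16.0 to 21.7 FPKM and KRT8 at 4.15 to 5.50 FPKM in the 5 libraries, EPCAM and CDH1 reached at most 0.249 FPKM, KRT7 was at or near 0 and KRT19 at 0. Of 6 lung lineage markers, the factor NKX2-1 stood at 0.709 to 1.17 FPKM and NAPSA at 0.213 to 0.418 FPKM, and the surfactant and secretory genes SFTPA1, SFTPB, SFTPC and SCGB1A1 were at or near 0. Of 3 mesenchymal markers, VIM was highest without glucose, at 135 and 150.4 FPKM in glucose-deprived, 85.1 FPKM in glutamine-deprived and 77.7 and 76.2 FPKM in control libraries. FN1 was highest without glutamine, at 1.81 and 1.79 FPKM in glucose-deprived, 3.49 FPKM in glutamine-deprived and 1.44 and 1.47 FPKM in control libraries, and CDH2 stood at 8.70 to 9.72 FPKM and passed no test. None of the 9 markers of leukocytes, endothelium and erythroid cells reached 1 FPKM, and the fibroblast marker COL1A1 stood at 1.83 FPKM in the glutamine-deprived library, against 0.384 to 0.642 FPKM in the others, with COL1A2 at or near 0.

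Lower levels prevailed among the 35 genes in both deprivations, but about as often as among other abundant genes. SLC2A3 and SLC16A3 stayed under 1 FPKM in every library and were not tested, which leaves 33 genes. In glucose deprivation 17 of them passed limma's test as lower than control, where 28% of all 16752 genes tested did, and 5 as higher, where 26.3% did. In glutamine deprivation 19 were lower, against 26.2% of all genes, and 2 were higher, against 24.7%. Between the deprivations, 10 were lower without glutamine than without glucose, against 21.8% of all genes, and 7 were higher, against 22.5%. By at least 0.5 log2, 7 were lower and 2 higher without glucose, against 8.58% and 9.2% of all genes, and 8 were lower and 0 higher without glutamine, against 9.71% and 12.1%. The counts of higher genes were unsteady. Without glucose there were 3 when control replicate 1 or glucose deprivation replicate 2 was left out and 2 without control replicate 2, and without glutamine 1 when control replicate 1 or glucose deprivation replicate 2 was left out and 0 without control replicate 2. Both comparisons with control use the same control libraries and so are not independent of each other.

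Most of these genes are abundant, and abundant genes were lower in general. Of the 4472 genes averaging at least 10 FPKM, 52.3% were lower in glucose deprivation and 64.6% in glutamine deprivation. Among the 25 genes of the set at that level, 15 and 17 were. Higher were 3 of the 25 without glucose and 1 without glutamine, against 21.2% and 10.6% of abundant genes. Between the deprivations 9 were lower without glutamine and 5 higher, against 43.6% and 18%, and 2 were lower by at least 0.5 log2, against 12.4%. The shares of lower genes in the set against control are therefore near their background. Of these 25, 6 fell by at least 0.5 log2 without glucose and 8 without glutamine, where 17.5% and 27.9% of abundant genes did. The median log2 fold change of the 33 genes was -0.18 in glucose deprivation, -0.28 in glutamine deprivation and 0.03 between the deprivations, against 0.03, 0.05 and 0.02 over all genes tested. That of the 25 abundant genes of the set was -0.32 in glucose deprivation, against -0.16 over all abundant genes, -0.34 in glutamine deprivation, against -0.31, and 0.02 between the deprivations, against -0.13. In glucose deprivation the median of the 25 was thus the lower, while the share of lower genes was near that of abundant genes.

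Scaling to the library total, in place of the trimmed mean, gives a median over all genes of 0.11 log2 in glucose deprivation, in place of 0.03, and of 0.29 log2 in glutamine deprivation, in place of 0.05. The 10 highest rows, short non-coding RNAs such as RN7SK and RN7SL1, hold 55.2% to 61.0% of that total. Under it 9 of the 33 genes were lower without glucose (PGAM1, LDHA, TIGAR, PKM, TPI1, ENO1, PGK1, PFKP and RPIA) and 0 without glutamine by limma's test, and in glutamine deprivation PFKM, PGM1, TALDO1 and TIGAR changed sign. Relative to the median of all genes, the set's median in glutamine deprivation was -0.33 log2 with the trimmed mean and -0.27 log2 with the library total. Each fall in glutamine deprivation below carries this limit. Those of SLC2A1, PFKM, TIGAR, GAPDH, TALDO1, RPIA and PGM1 also lost their calls on values as deposited and with upper-quartile scaling. Ratios between genes of a library, given at several places, do not depend on the scaling.

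**Figure D1:**
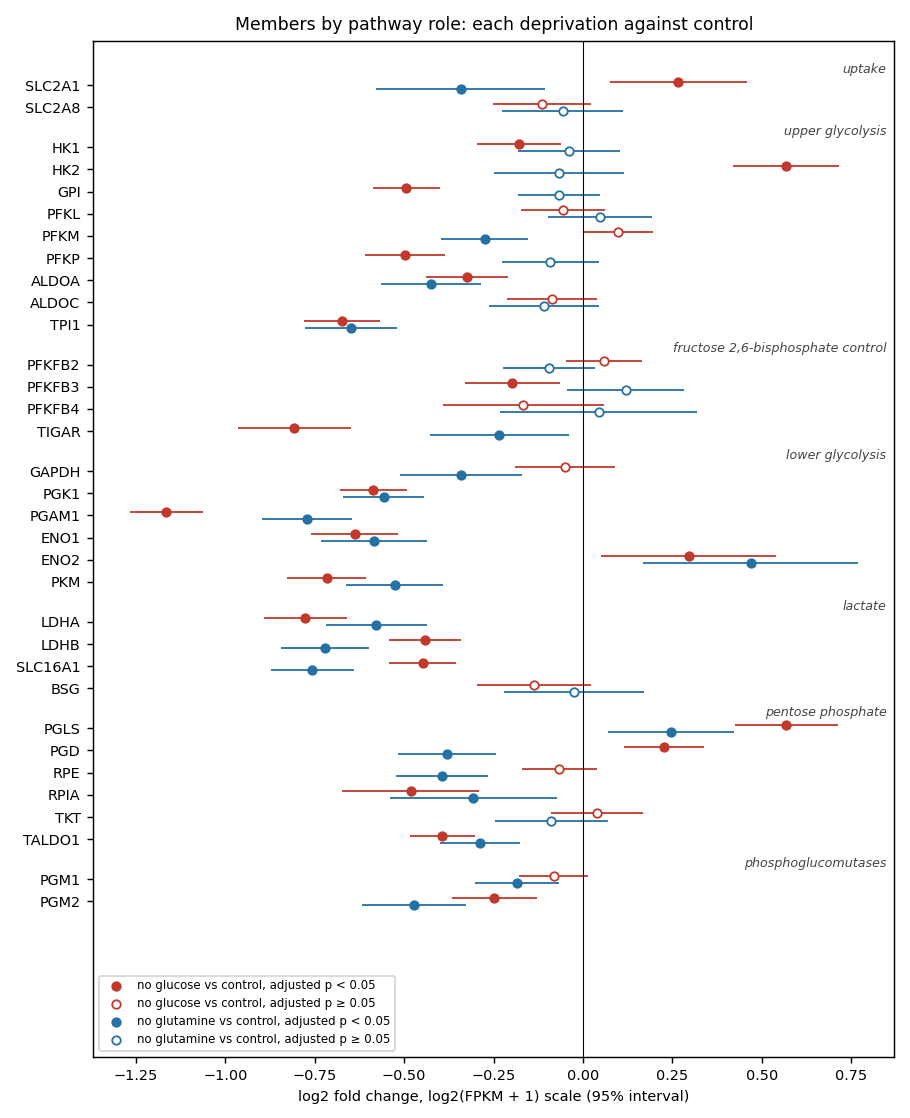
Log2 fold change of the 33 tested genes against control, on the log2(FPKM + 1) scale, with 95% intervals, grouped by role; filled points passed limma's test, red is glucose deprivation (2 libraries) and blue glutamine deprivation (1 library), each against 2 control libraries. PGAM1 lies farthest left in both at -1.17 and -0.77, HK2 and PGLS farthest right in glucose deprivation at 0.57 each, and with scaling to the library total PFKM, PGM1, TALDO1 and TIGAR change sign in glutamine deprivation.

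Glucose enters through carriers of the SLC2A family. SLC2A1 encodes GLUT1, the carrier of most proliferating cells. It stood at 7.90 and 9.32 FPKM in glucose-deprived, 5.29 FPKM in glutamine-deprived and 6.57 and 7.39 FPKM in control libraries. The glucose-deprived libraries were highest, the glutamine-deprived one lowest, and the groups did not overlap. SLC2A1 rose without glucose (0.27 ± 0.08 log2, adjusted p = 0.0274) and fell without glutamine (-0.34 ± 0.10, adjusted p = 0.0242). Neither call held throughout. In glucose deprivation the adjusted p was 0.249 without control replicate 1, 0.0821 without control replicate 2 and 0.159 without glucose deprivation replicate 2, and in glutamine deprivation it was 0.0596 without control replicate 1 and 0.158 without control replicate 2. The difference between the deprivations was -0.61 ± 0.10 log2 (glutamine over glucose deprivation, adjusted p = 0.00253). It held when any single control or glucose-deprived library was left out, and could not be tried without the only glutamine-deprived library. It did not hold with scaling to the library total (-0.43, adjusted p = 0.0532) or without the filter on low values (adjusted p = 0.0821).

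SLC2A8, an intracellular carrier, stayed between 3.40 and 3.80 FPKM in the 5 libraries and passed no test. SLC2A3, the high-affinity carrier GLUT3 of neurons, was at 0.274 and 0.312 FPKM in glucose-deprived, 0.466 FPKM in glutamine-deprived and 0.227 and 0.166 FPKM in control libraries. Its 3 pseudogene rows summed to 27.0 to 30.7 FPKM, so how reads were split between SLC2A3 and these near copies bears on its level. Of the summed level of the 3 carrier genes, SLC2A1 held 68.2% and 71.2% in glucose-deprived, 56.5% in glutamine-deprived and 62.0% and 65.1% in control libraries.

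Hexokinase traps glucose in the cell by phosphorylating it. HK1 is the widespread form, and HK2 is the inducible form of muscle, fat and many tumours. HK2 stood at 19.7 and 17.2 FPKM in glucose-deprived, 11.5 FPKM in glutamine-deprived and 12.2 and 12.03 FPKM in control libraries. Both glucose-deprived libraries stood above the other 3. HK2 rose without glucose by 0.57 ± 0.06 log2 (adjusted p = 0.000268), and 96.4% of abundant genes had a lower fold change. Without glutamine its fold change was -0.07 ± 0.08 (adjusted p = 0.498), and between the deprivations -0.63 ± 0.08 (adjusted p = 0.000733; -0.44 and 0.0693 with scaling to the library total). HK1 stood at 13.4 and 14.6 FPKM in glucose-deprived, 15.5 FPKM in glutamine-deprived and 15.9 and 16.0 FPKM in control libraries. It fell without glucose (-0.18 ± 0.05 log2, adjusted p = 0.0182), a call lost without control replicate 1 (adjusted p = 0.109), control replicate 2 (0.12) or glucose deprivation replicate 1 (0.0718). HK2 therefore held 59.5% and 54.1% of the summed hexokinase level in glucose-deprived cells, against 42.6% in glutamine-deprived and 43.4% and 42.9% in control cells, and was the more abundant of the pair in the glucose-deprived libraries alone.

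The 250 bases before the start that RefSeq (GRCh38.p14) lists for HK2 and HK1 are printed 5′ to 3′ on the gene's strand because this pair moved apart in glucose deprivation. Capitals mark ACGTG, a form of the core of sites bound by hypoxia-inducible factors, and GGGCGG, the GC box bound by Sp factors, each on either strand. Another form of that core, GCGTG, is not marked.
HK2 promoter, chr2:74833877-74834126, + strand: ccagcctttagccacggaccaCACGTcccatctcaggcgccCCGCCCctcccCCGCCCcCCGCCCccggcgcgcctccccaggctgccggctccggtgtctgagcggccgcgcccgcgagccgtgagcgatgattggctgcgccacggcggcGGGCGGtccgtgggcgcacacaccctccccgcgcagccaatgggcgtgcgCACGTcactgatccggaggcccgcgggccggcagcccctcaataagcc
HK1 promoter, chr10:69269750-69269999, + strand: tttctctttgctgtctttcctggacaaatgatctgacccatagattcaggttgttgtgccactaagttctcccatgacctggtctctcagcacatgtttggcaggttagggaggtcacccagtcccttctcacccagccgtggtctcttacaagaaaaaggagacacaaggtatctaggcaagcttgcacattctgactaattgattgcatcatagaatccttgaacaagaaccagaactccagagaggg
The HK2 window holds 2 matches to ACGTG and 4 to GGGCGG, and the HK1 window holds 0 of either. HK1 and HK2 have further starts, and these letters say nothing of them. Over the 300-base windows that reach 50 bases past the start, ACGTG is in 21.4% of the 35116 RefSeq promoters and in 11 of the 32 that matched a gene of the set, and GGGCGG in 45% and in 27 of 32. GCGTG is in 36.5% and in 14 of 32, with 1 match in the HK2 window and 0 in that of HK1. The glucose-responsive factors MondoA and ChREBP bind the carbohydrate response element, a pair of E-boxes with 5 bases between them. Only its exact form, CACGTG on both sides of the 5 bases, was searched, and 0 of these 32 hold it. Of all promoters 0.0057% hold that exact form, so its absence here was all but certain. Inexact forms of the element were not searched, and whether these promoters hold them was not tested. SLC2A3, SLC16A1 and PFKFB2 had no entry. One listed start per gene was read, and 16 of the 32 windows lie inside the gene as GENCODE 29 annotates it, so these counts describe the windows and not every start of a gene. A match is a run of letters and not a binding site.

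GPI interconverts glucose 6-phosphate and fructose 6-phosphate. It stood at 21.6 and 22.1 FPKM in glucose-deprived, 29.7 FPKM in glutamine-deprived and 31.5 and 30.9 FPKM in control libraries. It fell without glucose (-0.49 ± 0.04 log2, adjusted p = 6.57e-05) and not detectably without glutamine (-0.07 ± 0.05, adjusted p = 0.279), and the difference between the deprivations was 0.43 ± 0.05 (adjusted p = 0.000566). A same-strand locus, AC092073.1, shares 542 exon bases with GPI at 2.66 to 4.97 FPKM.

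Phosphofructokinase commits fructose 6-phosphate to glycolysis and is built from liver (PFKL), muscle (PFKM) and platelet (PFKP) subunits, all present here at 9.41 to 17.4 FPKM. PFKP stood at 9.41 and 9.45 FPKM in glucose-deprived, 12.8 FPKM in glutamine-deprived and 14.2 and 13.3 FPKM in control libraries, and fell without glucose (-0.50 ± 0.05 log2, adjusted p = 0.00014). PFKM stood at 17.0 and 17.4 FPKM in glucose-deprived, 13.1 FPKM in glutamine-deprived and 16.3 and 15.7 FPKM in control libraries. It fell without glutamine (-0.28 ± 0.05, adjusted p = 0.00351), but its call was lost on values as deposited (adjusted p = 0.103) and its sign turned with scaling to the library total (0.02, adjusted p = 0.936). The gene overlaps SENP1 on the opposite strand over 628 bases, and the strand setting of the counting is not given in the sources used here. PFKL passed no test. PFKM thus held 46.2% and 45.9% of the subunit sum in glucose-deprived, 34.8% in glutamine-deprived and 38.8% and 39.4% in control libraries, and PFKP held 25.5% and 24.9% in glucose-deprived, 34.2% in glutamine-deprived and 33.6% and 33.4% in control libraries. Between the deprivations PFKM differed by -0.37 ± 0.05 log2 (adjusted p = 0.00123) and PFKP by 0.41 ± 0.06 (adjusted p = 0.00141).

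ALDOA and ALDOC encode aldolases, which split fructose 1,6-bisphosphate, and TPI1 the isomerase that interconverts their products. ALDOA stood at 194 and 203 FPKM in glucose-deprived, 185 FPKM in glutamine-deprived and 255 and 242 FPKM in control libraries, and fell without glucose (-0.32 ± 0.05 log2, adjusted p = 0.00107) and without glutamine (-0.42 ± 0.06, adjusted p = 0.000917). A same-strand locus, AC093512.2, shares 1657 exon bases with ALDOA and was listed at 192 to 261 FPKM, so the level of ALDOA depends on how shared reads were divided. TPI1 stood at 233 and 244 FPKM in glucose-deprived, 242 FPKM in glutamine-deprived and 379 and 383 FPKM in control libraries. The deprived libraries overlapped with each other and lay well below the controls. TPI1 fell without glucose (-0.67 ± 0.05 log2, adjusted p = 3.33e-05) and without glutamine (-0.65 ± 0.06 log2, adjusted p = 0.000115). ALDOC was at 6.35 to 6.93 FPKM and passed no test.

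Fructose 2,6-bisphosphate is the strongest activator of phosphofructokinase. PFKFB2, PFKFB3 and PFKFB4 make and degrade it, and TIGAR, a p53 target, lowers it and so diverts sugar to the pentose phosphate pathway. TIGAR stood at 1.63 and 1.72 FPKM in glucose-deprived, 2.98 FPKM in glutamine-deprived and 3.56 and 3.80 FPKM in control libraries. The groups did not overlap, and the glucose-deprived pair was lowest. TIGAR fell without glucose (-0.81 ± 0.07 log2, adjusted p = 7.83e-05). Without glutamine its value was -0.23 ± 0.08 (adjusted p = 0.0483), which passed with these 5 libraries but not when any of the 4 control and glucose-deprived libraries was left out, with adjusted p from 0.0594 to 0.183, and which was 0.01 with the library total. It was higher without glutamine than without glucose (0.57 ± 0.08, adjusted p = 0.00145). TIGAR shares 1711 exon bases with the same-strand locus AC008012.1, which stood at 9.89 and 11.3 FPKM in glucose-deprived, 15.4 FPKM in glutamine-deprived and 14.3 and 13.6 FPKM in control libraries. Both rows together summed to 11.5 and 13.1 FPKM in glucose-deprived, 18.4 FPKM in glutamine-deprived and 17.9 and 17.4 FPKM in control libraries.

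PFKFB3, the form with the strongest kinase activity, stood at 7.27 and 7.65 FPKM in glucose-deprived, 9.53 FPKM in glutamine-deprived and 9.14 and 8.27 FPKM in control libraries. It fell without glucose (-0.20 ± 0.06 log2, adjusted p = 0.0214), a call lost without control replicate 1 (adjusted p = 0.157) and without either glucose deprivation replicate (0.125 and 0.0583). PFKFB2, at 3.79 to 4.35 FPKM, and PFKFB4, at 1.42 to 2.07 FPKM, passed no test. PFKFB2 shares 315 exon bases with YOD1 on the opposite strand, which was listed at 13.05 to 24.2 FPKM.

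**Figure D2:**
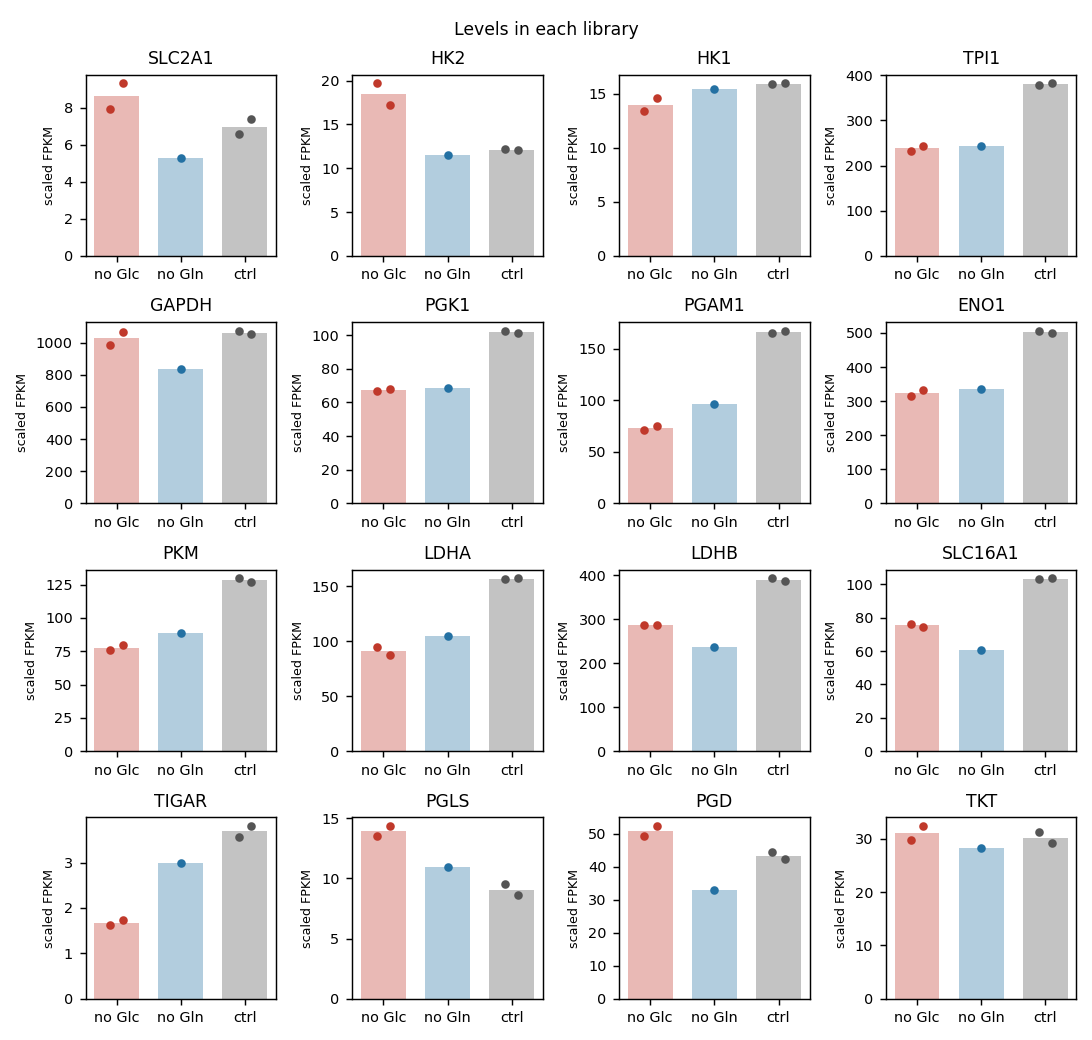
Scaled FPKM of 16 genes in each library (points) with the group mean (bars from 0) for glucose-deprived (2 libraries), glutamine-deprived (1 library) and control cells (2 libraries). Without glucose PGAM1 lies at 71.7 and 75.6 FPKM, against 165 and 168 FPKM in control, HK2, PGLS and PGD lie above both controls, and GAPDH and TKT overlap with control.

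Lower glycolysis harvests the ATP, and 5 of its 6 genes were among the abundant ones. GAPDH, whose transcript is often used as a reference in PCR, stood at 988 and 1066 FPKM in glucose-deprived, 839 FPKM in glutamine-deprived and 1074 and 1052 FPKM in control libraries. Glucose-deprived and control cells overlapped, with a log2 fold change of -0.05 ± 0.06 and a 95% interval of -0.19 to 0.09 (adjusted p = 0.506). Without glutamine GAPDH was lower (-0.34 ± 0.07, adjusted p = 0.00647), a call lost without control replicate 1 (adjusted p = 0.0962), without control replicate 2 (0.0836) and on values as deposited (0.0992). The summed level of the 35 genes was 2831 and 2965 FPKM in glucose-deprived, 2677 FPKM in glutamine-deprived and 3737 and 3680.0 FPKM in control libraries, and GAPDH made up 34.9% and 35.9% of it in glucose-deprived, 31.3% in glutamine-deprived and 28.7% and 28.6% in control libraries.

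PGAM1, the phosphoglycerate mutase, changed most of the set. It stood at 71.7 and 75.6 FPKM in glucose-deprived, 97.0 FPKM in glutamine-deprived and 165 and 168 FPKM in control libraries, with no overlap between groups. Without glucose it fell (-1.17 ± 0.04 log2, adjusted p = 6.31e-06), lower than all but 1.7% of abundant genes. Without glutamine it fell (-0.77 ± 0.05 log2, adjusted p = 6.51e-05), where 7.63% of abundant genes were lower still; with scaling to the library total this was -0.45 (adjusted p = 0.0658). The direct difference was 0.39 ± 0.05 (adjusted p = 0.00114). Its 13 pseudogene rows summed to 3.8% of its level at most.

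The enzymes on both sides of it were also lower. PGK1, which makes the first ATP, stood at 67.1 and 67.8 FPKM in glucose-deprived, 68.8 FPKM in glutamine-deprived and 102.6 and 101 FPKM in control libraries (-0.59 ± 0.04 log2, adjusted p = 3.47e-05, without glucose; -0.56 ± 0.05, adjusted p = 0.000125, without glutamine). ENO1, the main enolase, stood at 315 and 331 FPKM in glucose-deprived, 335 FPKM in glutamine-deprived and 506 and 501 FPKM in control libraries. A fall was seen without glucose (-0.64 ± 0.05 log2, adjusted p = 6.84e-05) and without glutamine (-0.58 ± 0.06 log2, adjusted p = 0.000283). For TPI1, PGK1 and ENO1 the direct differences were 0.02, 0.03 and 0.05 log2, and the widest of their 95% intervals, that of ENO1, ran from -0.10 to 0.20. None passed the test under any scaling, but the size depends on it: for TPI1, PGK1 and ENO1 it was 0.14, 0.15 and 0.17 log2 on values as deposited, 0.11, 0.11 and 0.14 with upper-quartile scaling and 0.23, 0.23 and 0.26 with the library total.

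ENO2, the neuronal enolase, ran the other way at a low level. It stood at 2.24 and 2.74 FPKM in glucose-deprived, 2.92 FPKM in glutamine-deprived and 2.07 and 1.61 FPKM in control libraries (0.30 ± 0.10 log2, adjusted p = 0.0454, without glucose; 0.47 ± 0.13, adjusted p = 0.0183, without glutamine). The glucose-deprivation call was lost without any single control or glucose-deprived library (adjusted p from 0.056 to 0.322), and the glutamine-deprivation call without control replicate 2 (0.131). ENO2 rested on an average of 371 inferred reads a library and made up less than 1% of the ENO1 and ENO2 sum.

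PKM, the pyruvate kinase gene whose M2 splice form is typical of tumours, stood at 75.5 and 80.0 FPKM in glucose-deprived, 88.8 FPKM in glutamine-deprived and 129.6 and 127 FPKM in control libraries. PKM was lower without glucose (-0.72 ± 0.05 log2, adjusted p = 3.24e-05) and without glutamine (-0.53 ± 0.06 log2, adjusted p = 0.000306). The splice forms share a row in these values and were not separated. Set against GAPDH of the same library, PKM stood at -3.71 and -3.74 log2 in glucose-deprived, -3.24 in glutamine-deprived and -3.05 and -3.05 in control libraries, and PGAM1 at -3.79 and -3.82 log2 in glucose-deprived, -3.11 in glutamine-deprived and -2.70 and -2.65 in control libraries. Both ratios were lowest without glucose and intermediate without glutamine. GAPDH itself was lower without glutamine (-0.34 log2 with the trimmed mean), which moves these ratios toward control in that library. The scaled levels of PKM and PGAM1 held the same order.

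Lactate dehydrogenase turns pyruvate into lactate and back, as tetramers of A subunits (LDHA), which favour lactate, and B subunits (LDHB). LDHA stood at 94.5 and 87.7 FPKM in glucose-deprived, 105 FPKM in glutamine-deprived and 156 and 157 FPKM in control libraries. LDHA was lower without glucose (-0.78 ± 0.05 log2, adjusted p = 2.89e-05) and without glutamine (-0.58 ± 0.06 log2, adjusted p = 0.000252). LDHB stood at 286 and 287 FPKM in glucose-deprived, 236 FPKM in glutamine-deprived and 393 and 387 FPKM in control libraries. LDHB was lower without glucose (-0.44 ± 0.04 log2, adjusted p = 0.000148) and without glutamine (-0.72 ± 0.05 log2, adjusted p = 7.19e-05). LDHB was the more abundant subunit gene throughout. LDHA held 24.8% and 23.4% of their sum in glucose-deprived, 30.7% in glutamine-deprived and 28.5% and 28.9% in control libraries, so its share was lowest without glucose and highest without glutamine, with no overlap. LDHB shares 997 exon bases with the same-strand locus AC010197.2, listed at 86.7 to 134 FPKM. The windows of this pair are shown because the subunits changed to different degrees.
LDHA promoter, chr11:18394313-18394562, + strand: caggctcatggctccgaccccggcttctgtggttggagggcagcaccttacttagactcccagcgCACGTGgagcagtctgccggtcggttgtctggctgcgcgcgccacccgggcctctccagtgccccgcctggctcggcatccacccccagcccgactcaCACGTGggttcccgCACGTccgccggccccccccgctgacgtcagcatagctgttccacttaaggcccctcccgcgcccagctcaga
LDHB promoter, chr12:21657843-21658092, − strand: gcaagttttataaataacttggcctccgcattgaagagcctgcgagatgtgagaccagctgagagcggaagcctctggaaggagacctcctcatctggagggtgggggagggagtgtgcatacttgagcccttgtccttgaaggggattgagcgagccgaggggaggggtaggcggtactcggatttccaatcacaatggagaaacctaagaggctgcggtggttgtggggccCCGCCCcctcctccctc
The LDHA window has ACGTG at 3 places, 2 of them within CACGTG, the E-box bound by MYC, which reads alike on both strands, and no GGGCGG. The LDHB window has 0 matches to ACGTG and 1 to GGGCGG. LDHA has a further RefSeq start, and the GENCODE 29 annotation of LDHB begins 99765 bases upstream of its window. The E-box letters CACGTG are in 7.26% of all RefSeq promoters and in 4 of 32 of the set.

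SLC16A1 encodes MCT1, which carries lactate and pyruvate across the membrane, and BSG its chaperone basigin. SLC16A1 stood at 76.5 and 74.6 FPKM in glucose-deprived, 60.9 FPKM in glutamine-deprived and 103 and 104 FPKM in control libraries, with no overlap. SLC16A1 was lower without glucose (-0.45 ± 0.04 log2, adjusted p = 0.000106) and without glutamine (-0.76 ± 0.05 log2, adjusted p = 5.69e-05). With scaling to the library total its values were -0.34 (adjusted p = 0.114) and -0.44 (0.081). BSG, at 94.5 to 115 FPKM, passed no test. SLC16A3, which encodes MCT4, the lactate exporter of highly glycolytic cells, reached at most 0.0476 FPKM, an average of about 8 inferred reads a library, so SLC16A1 was by far the more abundant of these carriers at the RNA level.

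The pentose phosphate genes split. PGLS, the lactonase of the second step, stood at 13.5 and 14.4 FPKM in glucose-deprived, 10.9 FPKM in glutamine-deprived and 9.52 and 8.62 FPKM in control libraries. It rose without glucose (0.57 ± 0.06 log2, adjusted p = 0.000235). Without glutamine it was 0.25 ± 0.08 (adjusted p = 0.028), a call lost without control replicate 1 (adjusted p = 0.0529), control replicate 2 (0.18) or glucose deprivation replicate 2 (0.0511). PGD, the dehydrogenase of the third step and a source of NADPH, stood at 49.3 and 52.3 FPKM in glucose-deprived, 33.0 FPKM in glutamine-deprived and 44.3 and 42.2 FPKM in control libraries. It rose without glucose (0.23 ± 0.05, adjusted p = 0.00538; 0.0958 without control replicate 2) and fell without glutamine (-0.38 ± 0.06, adjusted p = 0.00136; 0.807 with scaling to the library total). Between the deprivations PGD differed by -0.61 ± 0.06 log2 (adjusted p = 0.0003), and by -0.41 (adjusted p = 0.113) with the library total.

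In the non-oxidative branch, which reshuffles sugars and can make ribose from glycolytic intermediates, TKT (transketolase) stood at 29.8 and 32.4 FPKM in glucose-deprived, 28.3 FPKM in glutamine-deprived and 31.3 and 29.2 FPKM in control libraries. Its log2 fold changes were 0.04 (95% interval -0.09 to 0.17) without glucose and -0.09 (-0.25 to 0.07) without glutamine. TALDO1, the transaldolase, stood at 33.7 and 33.8 FPKM in glucose-deprived, 36.4 FPKM in glutamine-deprived and 44.6 and 44.8 FPKM in control libraries, and fell without glucose (-0.39 ± 0.04, adjusted p = 0.000162). Without glutamine it was -0.29 ± 0.05 (adjusted p = 0.00198). This call was lost on values as deposited (-0.13), with upper-quartile scaling (-0.11) and with the library total (0.02, adjusted p = 0.935). RPIA, the ribose 5-phosphate isomerase, fell without glucose (-0.48 ± 0.08, adjusted p = 0.00189), and its value without glutamine, -0.31 ± 0.10 (adjusted p = 0.0355), lost its call without control replicate 1 (0.107) or control replicate 2 (0.178). RPE, the epimerase, was at 33.1 and 31.2 FPKM in glucose-deprived, 25.4 FPKM in glutamine-deprived and 33.7 and 33.7 FPKM in control libraries, and fell without glutamine (-0.39 ± 0.05, adjusted p = 0.000846). The phosphoglucomutase genes PGM1 and PGM2, which link glycolysis to glycogen and to ribose, ranged over 20.8 to 24.03 and 13.8 to 19.6 FPKM. PGM2 was lower without glutamine (-0.47 ± 0.06, adjusted p = 0.000645) and without glucose (-0.25 ± 0.05, adjusted p = 0.00458), the last lost without control replicate 1 (0.0522) or control replicate 2 (0.0586). PGM1 without glutamine was -0.19 ± 0.05 (adjusted p = 0.0179), lost without control replicate 1 (0.0693) or control replicate 2 (0.0962), and 0.12 (adjusted p = 0.646) with the library total; it shares 197 exon bases with ITGB3BP on the opposite strand.

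**Figure D3:**
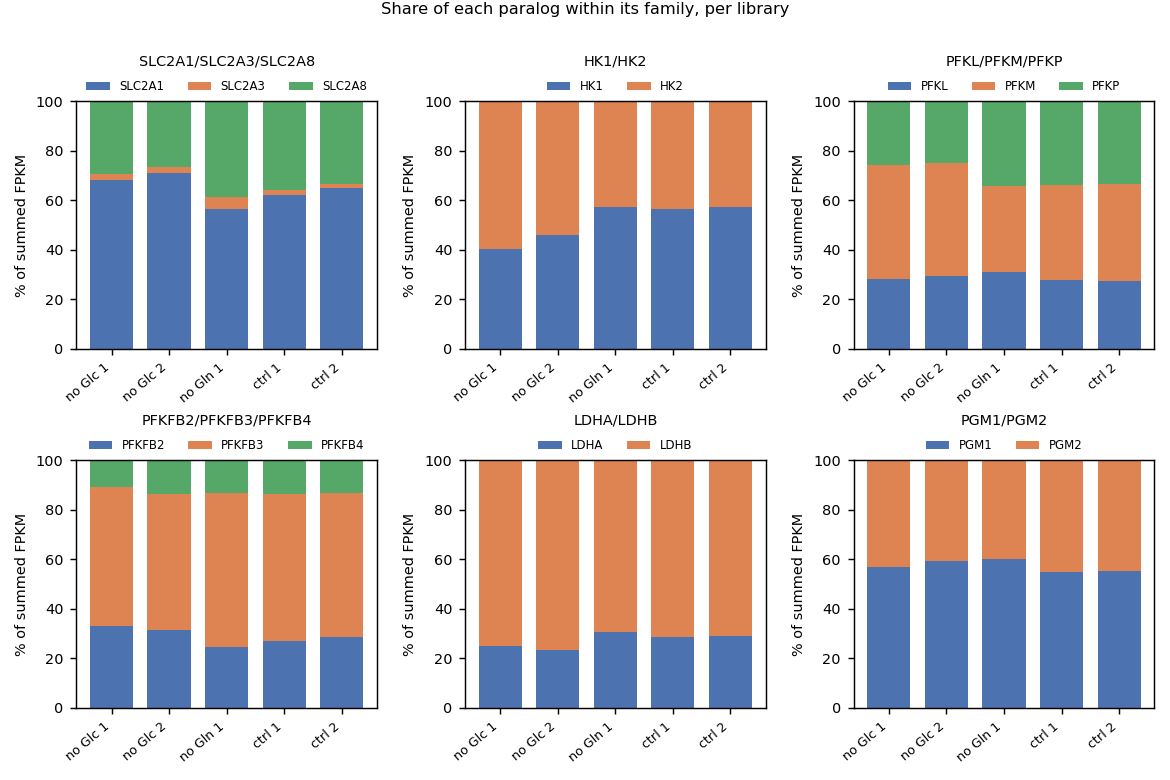
Share of each paralog in the summed FPKM of its family, in % per library, for glucose carriers, hexokinases, phosphofructokinase subunits, PFKFB enzymes, lactate dehydrogenases and phosphoglucomutases, with glucose-deprived, glutamine-deprived and control libraries from left to right. HK2 holds 59.5% and 54.1% without glucose, against 43.4% and 42.9% in control, and PFKP holds 25.5% and 24.9% without glucose, against 33.6% and 33.4% in control.

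The direct comparison of the deprivations has dialyzed serum on both sides. Without glutamine HK2 (-0.63 log2), SLC2A1 (-0.61) and PGD (-0.61) were lower by at least 0.5 log2 than without glucose, and TIGAR was higher (0.57), where 6.39% and 9.31% of all genes were that much lower or higher. GPI, PFKP, PGAM1 and PFKFB3 were also higher without glutamine, at 0.32 to 0.43 log2, and kept the direction and the call with scaling to the library total, at 0.50 to 0.63. The PFKFB3 difference lost its call without glucose deprivation replicate 1 (adjusted p = 0.0551). LDHA (0.20 ± 0.06 log2, adjusted p = 0.0321) and PKM (0.19 ± 0.06, adjusted p = 0.0327) passed with all libraries. LDHA lost its call without control replicate 1 (0.123), control replicate 2 (0.128) or glucose deprivation replicate 2 (0.0956), and PKM without control replicate 1 (0.127), control replicate 2 (0.13) or glucose deprivation replicate 1 (0.102). Lower without glutamine were also PFKM, RPE, PGLS, SLC16A1, GAPDH, LDHB and PGM2, at -0.37 to -0.22 log2, none of which passed with the library total. Of these, GAPDH lost its call without control replicate 1 (0.0993), control replicate 2 (0.102) or glucose deprivation replicate 2 (0.06), PGLS without glucose deprivation replicate 2 (0.0599), and PGM2 without control replicate 1 (0.0744) or control replicate 2 (0.0791).

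**Figure D4:**
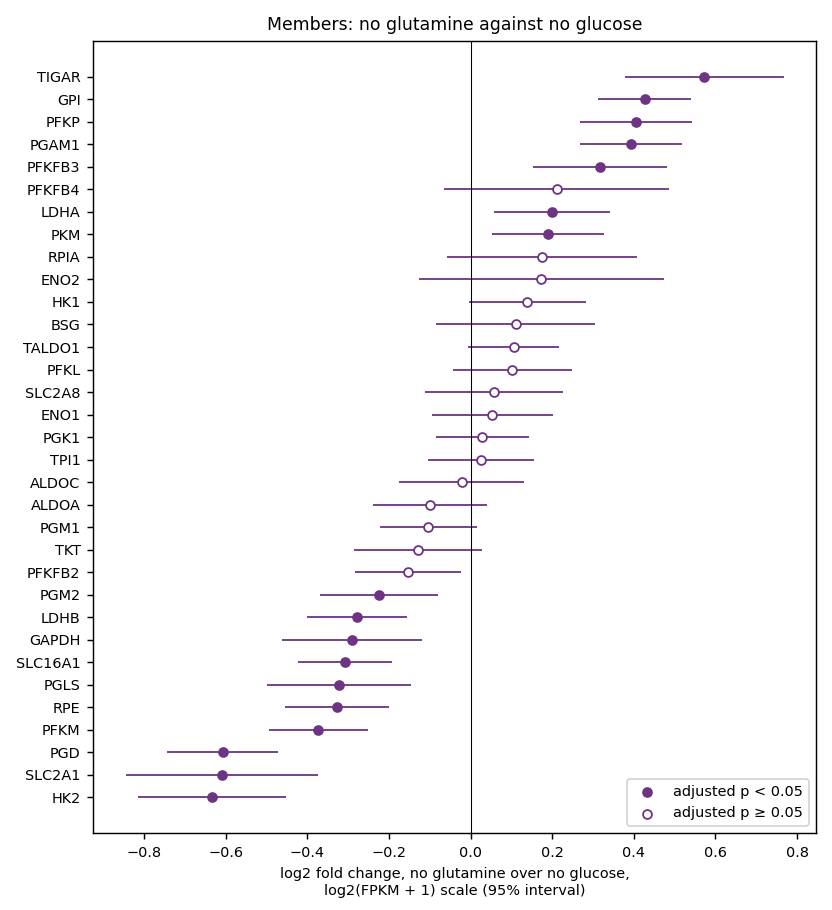
Log2 fold change of the 33 tested genes between the glutamine-deprived library and the 2 glucose-deprived libraries, on the log2(FPKM + 1) scale with 95% intervals; values above 0 are higher without glutamine, and filled points passed limma's test. TIGAR is at the top at 0.57 and HK2 at the bottom at -0.63, and 10 genes passed below 0 and 7 above it.

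The rest of these pathways was read from 80 further genes in the table, of which 45 were tested. In glucose deprivation 26 of the 45 were lower, where 28% of all genes tested were, and 9 higher, where 26.3% were (median -0.29 log2, against 0.03 over all genes). In glutamine deprivation 25 were lower and 9 higher, against 26.2% and 24.7% of all genes (median -0.22, against 0.05). Between the deprivations 11 were lower and 11 higher, against 21.8% and 22.5% (median -0.05, against 0.02). Part of the 45 averaged at least 10 FPKM, where 52.3% of genes were lower without glucose and 64.6% without glutamine. The 45 were not split by level, so the shares over all genes may be too low a background for them. PCK2, the mitochondrial enzyme that makes phosphoenolpyruvate from oxaloacetate and so feeds the reverse route, stood at 18.5 and 20.9 FPKM in glucose-deprived, 17.0 FPKM in glutamine-deprived and 7.90 and 6.23 FPKM in control libraries (1.36 ± 0.10 log2, adjusted p = 4.47e-05, without glucose; 1.16 ± 0.12, adjusted p = 0.000244, without glutamine). BPGM, which makes 2,3-bisphosphoglycerate, fell without glucose (-1.01 ± 0.08 log2, adjusted p = 5.42e-05) and without glutamine (-0.62 ± 0.09 log2, adjusted p = 0.00132). H6PD, which runs the oxidative steps in the endoplasmic reticulum, stood at 4.30 and 4.05 FPKM in glucose-deprived, 4.32 FPKM in glutamine-deprived and 2.13 and 2.17 FPKM in control libraries and rose without glucose (0.71 ± 0.05, adjusted p = 4.06e-05) and without glutamine (0.75 ± 0.06, adjusted p = 0.000101).

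MPC1, a subunit of the mitochondrial pyruvate carrier, was at 21.3 and 21.6 FPKM in glucose-deprived, 19.3 FPKM in glutamine-deprived and 32.7 and 32.9 FPKM in control libraries. MPC1 fell without glutamine (-0.74 ± 0.06 log2, adjusted p = 7.91e-05) and without glucose (-0.59 ± 0.05, adjusted p = 5.39e-05). PDHB, a pyruvate dehydrogenase subunit, and PRPS2, which activates ribose for nucleotide synthesis, fell by 0.69 and 0.62 log2 without glutamine. Without glucose they fell by 0.41 and 0.40 log2. SLC2A4, the insulin-responsive carrier GLUT4, rose by 0.66 ± 0.07 log2 without glucose (adjusted p = 0.000288) at a level of 3.06 and 3.38 FPKM, against 1.75 and 1.59 FPKM in control libraries. SLC2A4 was also higher without glutamine, by 0.47 ± 0.09 log2 at 2.69 FPKM, a call lost without control replicate 2. PGAM5, a mitochondrial phosphatase that resembles phosphoglycerate mutases, fell by 0.80 log2 without glucose and by 0.53 log2 without glutamine.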

How the data were processed

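RNA of 95D cells was sequenced, per the labels' protocols, after ribosomal RNA removal as read pairs of 150 bases. The submitters' processing notes name HISAT2 2.0.5, StringTie and hg38; annotation and strand setting are not given in the sources used here. Values that the authors deposited were taken as FPKM, although no header says so, because they are fractional and because 95.1% to 95.8% of low single-exon values per library are whole reads within 0.05, which also gave the depths. A value column of the glutamine table (1 in all) is headed as glucose deprivation replicate 2; it was not mapped or used, so 5 of 6 labelled libraries entered. A combined table with identical values was not used.

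FPKM were divided by trimmed-mean factors of 1.013 and 0.979 (glucose deprivation), 1.082 (glutamine deprivation) and 0.960 and 0.971 (control), from log ratios trimmed by 30% and abundances by 5%. A count test had been planned; FPKM need limma instead (version 3.58.1, R 4.3.3), run on log2(FPKM + 1) over 16752 genes that reached 1 FPKM in some library. A coefficient per group left 2 residual degrees of freedom, so the spread of glutamine-deprived cells is taken from the other groups. The variance trend used inferred reads, from exon lengths in GENCODE 29, found for 54986 names. Tests are two-sided, with Benjamini-Hochberg adjustment over all genes tested and a threshold of 0.05; the median SE was 0.07 to 0.08 log2. Replicate numbers showed no sign of pairing the libraries (r = -0.02 over genes between the replicate differences of glucose deprivation and control). This single correlation cannot exclude a pairing. The fit was tested on simulated data.

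The genes and lists were chosen with earlier results of these data known. Full values are given for genes that passed a test with at least 0.5 log2 and for SLC2A1, HK1, HK2, LDHA, LDHB, SLC16A1, SLC16A3, GAPDH, PKM, PGD and TKT, and up to 6 further pathway genes per comparison that passed by at least 0.5 log2 are named, except 2 that are not reported here. Alternatives were other scalings, a pseudocount of 0.1, other filters, another variance trend, robust moderation, a replicate block and leaving out each library.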

Additional observations from a re-analysis of the deposited data

How the results depend on the processing

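Over all alternatives, the genes of the set kept direction and side of the threshold in 1240 cases, lost the call in 142, gained it in 18 and reversed in 4. The reversals were PFKM (0.0241 log2), PGM1 (0.12), TALDO1 (0.0245) and TIGAR (0.0115) in glutamine deprivation with scaling to the library total; the cause was not tested. The 11 further pathway genes named kept both in 433 cases, lost the call in 27 and gained it in 4. The library total also gave 9, 0 and 0 lower genes in glucose deprivation, in glutamine deprivation and between the deprivations, medians of -0.0945, 0.0241 and 0.23 log2, and 5475 genes called in glucose deprivation and 4202 between the deprivations. Values as deposited gave medians of -0.14, -0.12 and 0.15, with 12 genes lower and 4 higher in glutamine deprivation and 11 higher between the deprivations. Upper-quartile scaling gave medians of -0.11, -0.11 and 0.11, with 12 lower and 4 higher in glutamine deprivation. Without a filter on low values 2, 0 and 4 genes were higher and 6 lower between the deprivations, with medians of -0.23 in glutamine deprivation and 0.0534 between the deprivations. A filter on a mean of 5 FPKM tested fewer genes and called 5418, 5270 and 4621, with medians of -0.22, -0.32 and 0.0011, and 1 higher in glutamine deprivation. A variance trend over the level gave 3 higher in glucose and 0 in glutamine deprivation. A pseudocount of 0.1 gave a median of -0.22 in glucose deprivation. With the replicate number as a block, 1 gene was higher in glutamine deprivation and the median there was -0.25.

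Leaving out each library in turn gave 2 to 5 higher genes in glucose and 0 to 2 in glutamine deprivation, medians of -0.23 to -0.12 in glucose deprivation and 0.0045 to 0.0503 between the deprivations, and 5640 to 9082 genes called in glucose and 5371 to 8499 in glutamine deprivation, with the lowest counts of called genes without a control replicate; the cause was not tested. DESeq2 was not run, as no counts were used, nor was the fit without glutamine deprivation replicate 2, whose column was not mapped; without replicate 1 no glutamine-deprived library is left. Depth limits ENO2, TIGAR, PFKFB4 and SLC2A8, which rest on 371 to 542 inferred reads a library, and depths and intervals cover counting error and the spread of these libraries only.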

Other observations

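Among 11 tested genes of glycogen and galactose metabolism, which joins glycolysis through the phosphoglucomutases, 3 were higher and 3 lower without glutamine than without glucose and 5 passed no test in that comparison (median -0.0078 log2). GYS1, the glycogen synthase of muscle and most other tissues, stood at 7.07 and 6.65 FPKM in glucose-deprived, 11.5 FPKM in glutamine-deprived and 10.1 and 9.68 FPKM in control libraries. It was higher without glutamine than without glucose (0.66 ± 0.06 log2, adjusted p = 0.000286 by limma). GALT, an enzyme of galactose metabolism, was highest without glucose. It stood at 7.84 and 8.09 FPKM in glucose-deprived, 4.78 FPKM in glutamine-deprived and 4.94 and 4.66 FPKM in control libraries, a difference of -0.63 ± 0.07 log2 between glutamine and glucose deprivation (adjusted p = 0.000405).

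Among the sugar carriers, SLC2A12 stood at 1.30 and 1.16 FPKM in glucose-deprived, 2.64 FPKM in glutamine-deprived and 2.42 and 1.98 FPKM in control libraries, and was higher without glutamine than without glucose (0.71 ± 0.11 log2, adjusted p = 0.00202 by limma).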
